A study of Mus musculus with 56 samples.

Results

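Messenger RNA of 9 further genes of the circadian clock was followed in visceral adipose tissue (VAT) of mice fed only by day or only by night. The genes were Per1, Cry2, Ciart, Bhlhe40, Bhlhe41, Rora, Usp2, Csnk1d and Csnk1e, found by gene symbol among the 25939 genes of the deposited table. They were listed by name as clock genes outside the set shown in the clock figure of the study, and no measured value entered the rule. The study asked how the timing of food sets the clocks of peripheral tissues. Its VAT samples came from 56 adult female C57BL/6J mice, with no genetic change, aged 9 weeks. All mice lived in a 12 h light:12 h dark cycle on normal chow and had been on their regimen for 7 days. One regimen was daytime-restricted feeding (DRF) and the other, the control, nighttime-restricted feeding (NRF). Tissue of 4 mice per regimen was taken every 4 h from zeitgeber time (ZT) 0, the start of the light phase, to ZT24, which gave 14 groups and 28 libraries per regimen. Each mouse gave 1 sample, so no mouse was followed over time.

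The mammalian clock is a loop in which the CLOCK and BMAL1 proteins switch on genes that carry an E-box, among them their own inhibitors. PER and CRY proteins enter the nucleus and block CLOCK and BMAL1, while DEC1 and DEC2 (Bhlhe40 and Bhlhe41) compete for the E-box and CIART (also known as CHRONO) binds BMAL1. RORA drives Bmal1 transcription from sites that REV-ERB represses, casein kinases 1 delta and 1 epsilon phosphorylate PER and set its lifetime, and USP2 removes ubiquitin from clock proteins. Meal time is one of the cues that can set this loop in peripheral tissues.

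Depth was similar throughout, at 31106014 to 41205011 recovered reads a library (median of the DRF libraries 34974262, of the NRF libraries 35883354). Levels are given as CPM, read counts scaled to a common library size that the deposited values hold, and differences as differences of log2(CPM + 1). The summed level of 7 adipocyte markers, 7 of 7 found and none at 0 throughout, was 16112 to 30499.8 CPM under NRF and 6793 to 21108 CPM under DRF, with medians of 23109.8 and 16729.5 CPM. In bulk tissue, fewer cells of a type and less RNA per cell cannot be told apart. A pair of DRF libraries stood apart, with a summed level of the 4 found of 5 epithelial markers of the female tract, none at 0 throughout, of 257 CPM in DRF ZT8 replicate 1 and 1876 CPM in DRF ZT0 replicate 4, against 2.33 to 7.12 CPM under NRF. The first of them also had the lowest adipocyte sum of all libraries, and in the second that sum was 10124 CPM. The summed level of 3 red cell markers, 3 of 3 found and none at 0 throughout, was 149 to 638 CPM under NRF (median 240.3) and 179 to 742 CPM under DRF (median 394). That of 5 skeletal muscle markers, 5 of 5 found and none at 0 throughout, was 10.7 to 525 CPM under NRF (median 38.6) and 5.88 to 402 CPM under DRF (median 57.5). In the following lists all markers were found and none was at 0 throughout. The median sum was lower under DRF for 4 mesothelium markers (312 against 411 CPM under NRF), 4 macrophage markers (281 against 346 CPM) and 3 progenitor markers (257 against 305 CPM). Their ranges overlapped, at 208 to 578 and 176 to 529 CPM for mesothelium, 256 to 468 and 211 to 418 CPM for macrophages and 210.0 to 419 and 187 to 337 CPM for progenitors under NRF and DRF. For 3 endothelium markers the medians were 618 CPM under NRF and 655 CPM under DRF (ranges 504 to 820.4 and 372 to 801 CPM), and for 5 lymphocyte markers 6.57 and 6.15 CPM (3.80 to 18.3 and 2.68 to 14.4 CPM). The 4 liver markers had medians of 22.7 CPM under NRF and 34.0 CPM under DRF (13.4 to 1612 and 16.4 to 73.6 CPM), with 1612 CPM in 1 NRF library. Of 4 exocrine pancreas markers 2 were found, with a sum of at most 0.203 CPM in any library. The part of these differences in the results below was not tested, except that the tests were repeated without the pair of DRF libraries.

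Promoters are shown because the loop acts through the E-box. They are those of Per1, Ciart and Bhlhe41, which held it, and of Cry2, which held only the letters CACGTT. RefSeq promoter windows (GRCm38.p6, the build of the files) were found for 7 of the 9 genes. Bhlhe40 and Csnk1d had no entry. The 250 bases before each start site were searched on both strands for CACGTG (E-box), CACGTT (second E-box letters), TTANGTAA (D-box), AGGTCA (core letters of ROR and REV-ERB sites) and TGACGTCA (CRE). No 2 of the matches found shared bases. The 7 genes had 11 windows, since some have several start sites. CACGTG was found in 3 of the 11, 1 each of Per1, Ciart and Bhlhe41, against 6.02% of 32851 windows in the table. Per1 has 2 windows, and in the other one, chr11:69099902-69100151, none of the letters searched for were found. Stretches that an annotated exon covers are left out below, sequences run 5′ to 3′ on the strand of the gene, and capitals mark the matches.
Per1, chr11:69098699-69098947, plus strand, inside the annotated span of the gene: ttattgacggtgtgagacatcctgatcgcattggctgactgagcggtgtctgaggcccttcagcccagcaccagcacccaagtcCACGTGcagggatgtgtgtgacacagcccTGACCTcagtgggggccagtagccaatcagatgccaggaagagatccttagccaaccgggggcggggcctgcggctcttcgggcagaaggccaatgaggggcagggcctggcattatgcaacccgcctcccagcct
Ciart, chr3:95882252-95882478, minus strand, within the span of the annotated gene C920021L13Rik: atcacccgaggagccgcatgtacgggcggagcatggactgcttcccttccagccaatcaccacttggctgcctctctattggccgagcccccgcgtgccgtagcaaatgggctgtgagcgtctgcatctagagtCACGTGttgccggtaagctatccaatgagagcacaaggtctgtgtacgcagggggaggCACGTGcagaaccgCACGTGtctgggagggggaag
Bhlhe41, chr6:145865559-145865670, minus strand, upstream of the gene: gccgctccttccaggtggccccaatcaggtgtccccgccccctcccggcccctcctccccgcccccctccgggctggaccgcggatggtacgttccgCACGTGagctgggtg
Cry2, chr2:92434070-92434319, minus strand, upstream of the gene: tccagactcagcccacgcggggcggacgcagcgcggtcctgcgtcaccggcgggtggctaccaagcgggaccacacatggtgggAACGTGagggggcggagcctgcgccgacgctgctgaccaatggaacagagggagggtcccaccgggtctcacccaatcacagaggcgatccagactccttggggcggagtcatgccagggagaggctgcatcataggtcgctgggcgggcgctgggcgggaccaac

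Ciart held 3 E-boxes, 116, 58 and 44 bases before its start site. The E-box of Per1 lay 166 bases and that of Bhlhe41 153 bases before the start site. In Per1, AGGTCA on the other strand (TGACCT above) lay 137 bases before the start, a motif found in 14% of the windows. In Cry2 the letters CACGTT, read on the other strand, lay 166 bases before the start, against 3.85% of windows. For Usp2, Rora and Csnk1e none of the letters searched were in the 250 bases. A match of letters is a description of the sequence, not a site of binding.

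By level per exon length, Csnk1d was the most abundant of the 9 genes and Ciart the least. Over the 28 NRF mice, Csnk1d averaged 21.9 ± 1.41 CPM per kb (SD over all times), Bhlhe40 19 ± 14, Cry2 12.1 ± 3.1, Per1 8.5 ± 6.8, Csnk1e 6.08 ± 0.955, Usp2 4.63 ± 3.67, Rora 3.26 ± 0.985, Bhlhe41 3.08 ± 1.86 and Ciart 1.33 ± 1.94 CPM per kb. Every pair of neighbours in this order overlapped within these SDs. Under DRF the order was the same, with Rora (3.87 ± 0.855) and Usp2 (3.48 ± 1.86) exchanged. The genes lie on chr11:69095217-69109960 (Per1), chr2:92403646-92434043 (Cry2), chr3:95878503-95882251 (Ciart), chr6:108660629-108666925 (Bhlhe40), chr6:145858243-145865558 (Bhlhe41), chr9:68653786-69388246 (Rora), chr9:44067021-44095627 (Usp2), chr11:120961749-120991330 (Csnk1d) and chr15:79417856-79455566 (Csnk1e) in GRCm38. Ciart had 9 to 545 reads per library, and the lowest count of any other member was 166. Of the exon bases of Bhlhe41, 19.1% also lie in exons of an opposite-strand gene, Gm43909, so part of its reads could not be assigned by position alone. For the other members this share was at most 4.67%.

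The daily profile of all 9 genes differed between day-fed and night-fed mice. A 24-h rhythm was called for 7 of 9 genes under NRF, against 24.9% of all genes, and for 1 of 9 under DRF, against 12.7%, by a MetaCycle-type test with Benjamini-Hochberg adjustment over all genes. The 7 were Per1, Cry2, Ciart, Rora, Usp2, Csnk1d and Csnk1e, and the 1 gene called under DRF, and so under both regimens, was Rora. The difference between the rhythms was tested itself in limma, and it passed for 9 of 9 genes, against 36% of all genes, with adjusted p-values from 3.1e-13 (Usp2) to 0.00839 (Csnk1d). Without replicate 4 of every group Csnk1d no longer passed (limma adjusted p = 0.0703). The calls under DRF depend on the test more than those under NRF. The F test of the 24-h terms in limma called 9 genes under NRF, against 33.7% of all genes, and 5 under DRF, against 26.7%. The 5 were Bhlhe40, Bhlhe41, Rora, Usp2 and Csnk1e.

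**Figure D1:**
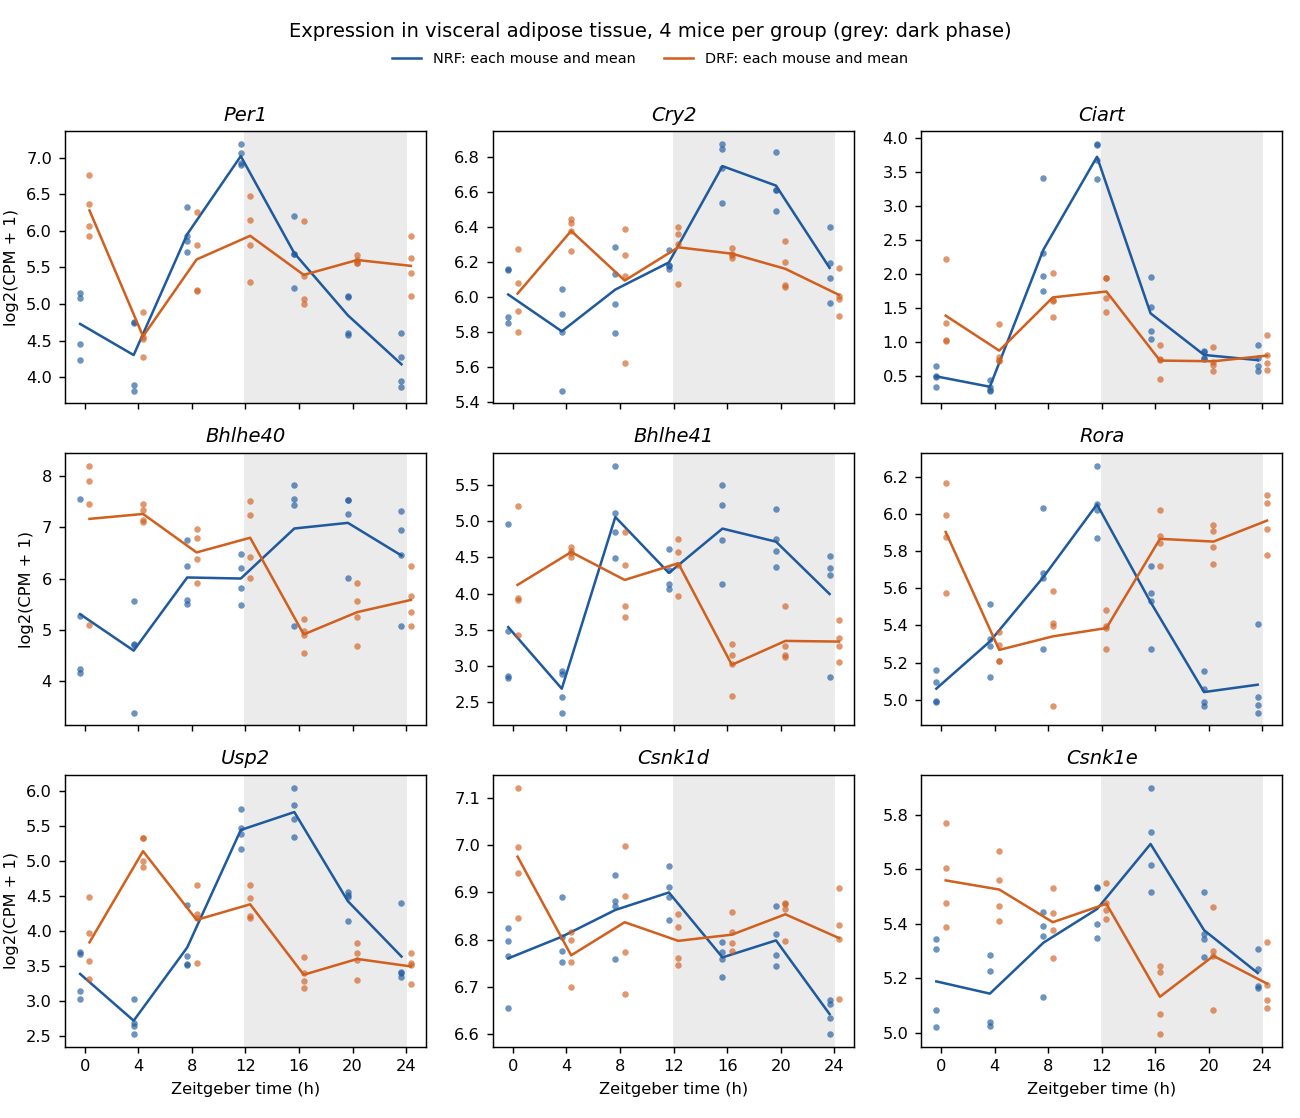
Expression of the 9 genes as log2(CPM + 1) against zeitgeber time in h, with each mouse as a point, group means joined by lines, NRF in blue, DRF in orange and the dark phase in grey. NRF peaks of Per1, Ciart and Rora at ZT12 and of Cry2, Usp2 and Csnk1e at ZT16 are flattened or moved under DRF.

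Per1, the clock repressor that also answers to acute signals, peaked at the end of the light phase in night-fed mice and lost most of this peak in day-fed mice. At ZT12 the NRF mice had 121, 145, 132 and 118 CPM and the DRF mice 38.5, 54.7, 87.8 and 69.9 CPM. All NRF values lay above all DRF values at this time (log2 difference -1.09, SE 0.26, limma adjusted p = 0.00239). At ZT0 the order was turned, with 32.8, 20.9, 17.8 and 34.4 CPM under NRF and 81.4, 108, 59.7 and 65.7 CPM under DRF. Here every DRF mouse was above every NRF mouse, 2.93-fold on the log2(CPM + 1) scale (limma adjusted p = 6.5e-05). Under NRF the group mean went from 17.5 ± 4.45 CPM at ZT24 to 129 ± 12.1 CPM at ZT12, a 7.39-fold range. Under DRF it went from 22.8 ± 4.35 CPM at ZT4 to 78.6 ± 21.5 CPM at ZT0, a 3.44-fold range. No 24-h rhythm was called under DRF, and the cosine amplitude was 20.2% of that under NRF (difference -0.96, 95% interval -1.38 to -0.53, Wald test, adjusted p = 0.00842). This amplitude call was lost without replicate 2, 3 or 4 of every group (adjusted p = 0.116 to 0.148).

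Cry2, a partner of PER in repression, showed a night peak under NRF that was nearly absent under DRF. The NRF mice had 114, 116, 91.8 and 106 CPM at ZT16 and the DRF mice 76.7, 75, 74.5 and 73.9 CPM. The groups did not overlap (log2 difference -0.50, SE 0.12, limma adjusted p = 0.00431), and the same held at ZT20 (-0.48, SE 0.12, adjusted p = 0.00459). At ZT4 it was higher under DRF, at 86.3, 75.8, 82.1 and 85 CPM against 65.2, 59, 43.2 and 54.6 CPM (limma adjusted p = 0.000488). Its amplitude under DRF was 18.8% of that under NRF (difference -0.37, 95% interval -0.52 to -0.22, adjusted p = 0.00268), the smallest share among the members. Without replicate 2 of every group the amplitude difference did not pass (adjusted p = 0.126).

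Ciart had the widest daily range of the 9 genes under NRF. Night-fed mice had 0.224, 0.236, 0.273 and 0.362 CPM at ZT4 and 11.9, 13.9, 14.2 and 9.6 CPM at ZT12, a 45.3-fold difference of the means on the CPM scale. Day-fed mice had 2.14, 2.85, 2.84 and 1.74 CPM at ZT12, all below the NRF mice (log2 difference -1.98, SE 0.22, limma adjusted p = 1.36e-08). The DRF means spanned 0.658 ± 0.184 CPM at ZT20 to 2.39 ± 0.55 CPM at ZT12, 3.64-fold. Amplitude was 30.9% of that under NRF (difference -0.94, 95% interval -1.35 to -0.53, adjusted p = 0.0059), and this call was lost without replicate 1 or 2 (adjusted p = 0.0681 and 0.0694). Ciart was also the only member with a lower mean level over the day under DRF (log2 difference -0.44, SE 0.14, limma adjusted p = 0.0216), against 10.3% of all genes that were lower. With a pseudocount of 0.1 CPM this difference did not pass (limma adjusted p = 0.139), nor without the ZT24 libraries (0.122) or without replicate 1, 3 or 4 (0.0509 to 0.109). With genes filtered at a mean log2(CPM + 1) of 1, Usp2 was lower as well (log2 difference -0.28, limma adjusted p = 0.0452).

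Bhlhe40 and Bhlhe41 encode the repressors DEC1 and DEC2. Bhlhe40 varied more between mice of a group than any other member, with a median SD over groups of 0.90 under NRF and 0.51 under DRF on the log2 scale. At ZT4 the NRF mice had 25, 46.3, 9.49 and 25.6 CPM and the DRF mice 174, 140, 161 and 137 CPM, with no overlap (log2 difference 2.66, SE 0.59, limma adjusted p = 0.000828). At ZT16 NRF mice had 226, 173, 33 and 188 CPM and DRF mice 22.4, 29, 36.2 and 30.6 CPM. One NRF mouse lay among the DRF mice, and the difference of -2.06 (SE 0.59) passed (limma adjusted p = 0.0166). Bhlhe41 followed the same direction at both times. It was 6.43, 6.58, 4.12 and 4.92 CPM under NRF and 21.7, 24, 23.1 and 22.6 CPM under DRF at ZT4 (log2 difference 1.89, SE 0.35, limma adjusted p = 0.000115). At ZT16 it was 44.5, 36.3, 16.5 and 25.7 CPM under NRF and 5.02, 7.84, 8.83 and 7.17 CPM under DRF (log2 difference -1.88, SE 0.35, limma adjusted p = 0.000288). At neither time did the Bhlhe41 groups overlap.

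In its main setting the MetaCycle-type test called a 24-h rhythm for neither DEC gene in either regimen. The adjusted p-values were 0.242 (Bhlhe40) and 0.244 (Bhlhe41) under NRF, and 0.228 and 0.0731 under DRF. Under DRF, Bhlhe41 passed this test with genes filtered at a mean log2(CPM + 1) of 1 (adjusted p = 0.0459). It also passed without the pair of DRF libraries that stand apart (0.0287). The limma F test called both genes in both regimens (adjusted p = 0.00634 and 0.00129 under NRF, 0.00979 and 0.0115 under DRF). The fitted amplitudes were nearly equal between the regimens. That of Bhlhe40 under DRF was 99.2% of NRF, with a 95% interval of the difference from -0.79 to 0.77, and that of Bhlhe41 89.5%, with an interval from -0.62 to 0.45. These intervals are wide, and the test does not show that the amplitudes are alike.

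Rora, the activator that opposes REV-ERB, was the 1 member the MetaCycle-type test called rhythmic in both regimens, against 7.91% of all genes. Its adjusted p-value was 1.85e-06 under NRF and 0.0127 under DRF. At ZT12 NRF mice had 57.6, 65.3, 64 and 75.6 CPM and DRF mice 40.9, 41.1, 43.8 and 37.7 CPM, with all NRF mice higher (log2 difference -0.66, SE 0.12, limma adjusted p = 9.5e-05). At ZT20 NRF mice had 30.2, 30.8, 34.7 and 32.3 CPM and DRF mice 55.6, 60.4, 59.1 and 52.1 CPM, with all DRF mice higher (0.81, SE 0.12, limma adjusted p = 6.46e-06). The fitted peak was at 11 h under NRF (SE 0.465 h) and at 20.2 h under DRF (SE 0.523 h). This shift of 9.15 h (SE 0.7 h) passed the Wald test over the 2051 genes rhythmic in both regimens (adjusted p = 3.44e-17), as did 97.2% of those genes, whose median shift was 10.3 h. The amplitude was 82.3% of NRF, with a 95% interval of the difference from -0.23 to 0.07. Rora was also the only member with a higher mean level under DRF (log2 difference 0.17, SE 0.05, limma adjusted p = 0.0133), against 11.4% of all genes. The call of a rhythm under DRF was lost without replicate 1, 2 or 3 (adjusted p = 0.164 to 0.272) and by JTK_CYCLE alone (0.0634). That of the mean level was lost without replicate 2 or 3 (limma adjusted p = 0.0808 and 0.0997).

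Usp2, a deubiquitinase, had the smallest adjusted p-value for a rhythm of the 9 genes under NRF (1.44e-08). Its amplitude of 1.43 (SE 0.12) and that of Ciart, 1.36 (SE 0.14), lay within their errors. With a pseudocount of 0.1 CPM they were 1.51 and 2.01, so that their order depends on the pseudocount. NRF mice had 7.23, 4.77, 5.45 and 5.24 CPM at ZT4 and DRF mice 39.3, 30.9, 39.3 and 29.1 CPM (log2 difference 2.42, SE 0.22, limma adjusted p = 4.68e-10). At ZT16 the order was the reverse, with 55, 65.3, 39.6 and 47.6 CPM under NRF and 11.4, 8.81, 8.1 and 9.64 CPM under DRF (log2 difference -2.32, SE 0.22, limma adjusted p = 7.01e-10). The groups were fully apart at both times. The group means ranged 9.14-fold under NRF, from ZT4 to ZT16, and 3.65-fold under DRF, from ZT16 to ZT4. Amplitude was 47.6% of NRF (difference -0.75, 95% interval -1.09 to -0.41, adjusted p = 0.0097), a call lost without replicate 1, 2 or 4 (adjusted p = 0.0673 to 0.105). The rhythm under DRF did not pass the MetaCycle-type test (adjusted p = 0.108) and passed the limma F test (5.68e-05). Without the ZT24 libraries it passed the MetaCycle-type test as well (adjusted p = 0.0357).

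The casein kinase genes had the smallest amplitudes under NRF, 0.084 (SE 0.022) for Csnk1d and 0.24 (SE 0.042) for Csnk1e. Csnk1d stayed between 95.9 and 123 CPM in all NRF mice and between 101 and 138 CPM in all DRF mice, and its group means differed over the day by 1.20-fold under NRF and 1.16-fold under DRF. Its rhythm was called under NRF (adjusted p = 0.00248), a call lost without the ZT24 libraries (0.175) and without replicate 1 or 4 (0.0598 and 0.0815). Csnk1e peaked at ZT16 under NRF, at 58.8, 52.4, 44.8 and 48.1 CPM, where the DRF mice had 36.3, 36.9, 32.5 and 30.8 CPM. The DRF mice were all lower (log2 difference -0.56, SE 0.09, limma adjusted p = 2.72e-05). At ZT4 it was higher under DRF, by 0.38 (SE 0.09, limma adjusted p = 0.00148). Amplitude differences of both kinases did not pass (Csnk1d 46.5% of NRF, 95% interval of the difference -0.11 to 0.02, and Csnk1e 62.6%, -0.21 to 0.03).

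Set side by side, 4 of 9 genes had a lower amplitude under DRF, Per1, Cry2, Ciart and Usp2, against 1.1% of all genes, and 0 of 9 a higher one, against 0.339%. The median amplitude under DRF was 47.6% of NRF over all 9 genes, of which 7 were called rhythmic under NRF. It was 64.3% over all genes rhythmic under NRF. Without replicate 2 of every group none of the 4 passed after adjustment (Wald test, adjusted p = 0.0694 to 0.126). The fitted peak times under NRF ran from 10.5 h (Csnk1d, SE 1.12 h) and 11 h (Rora) over 11.6 h (Ciart, SE 0.437 h) and 12.3 h (Per1, SE 0.509 h) to 14.9 h (Bhlhe41), 15.1 h (Csnk1e), 15.2 h (Usp2), 17.1 h (Cry2) and 17.1 h (Bhlhe40). Under DRF, Bhlhe40 (5.69 h), Csnk1e (5.77 h), Bhlhe41 (6.65 h) and Usp2 (6.65 h) had fitted peaks near the middle of the light phase. Those of Ciart (8.79 h, SE 1.33 h), Cry2 (11.2 h, SE 2.47 h), Per1 (17.5 h, SE 2.23 h) and Csnk1d (22.2 h, SE 2.38 h) had the largest errors. A peak time has a meaning only where a rhythm is called. In its main setting the MetaCycle-type test called none for Bhlhe40 and Bhlhe41 under NRF. Under DRF it called only Rora. The peak times without such a call are descriptions with no test. The limma F test called Bhlhe40 and Bhlhe41 in both regimens, and Usp2 and Csnk1e under DRF.

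**Figure D2:**
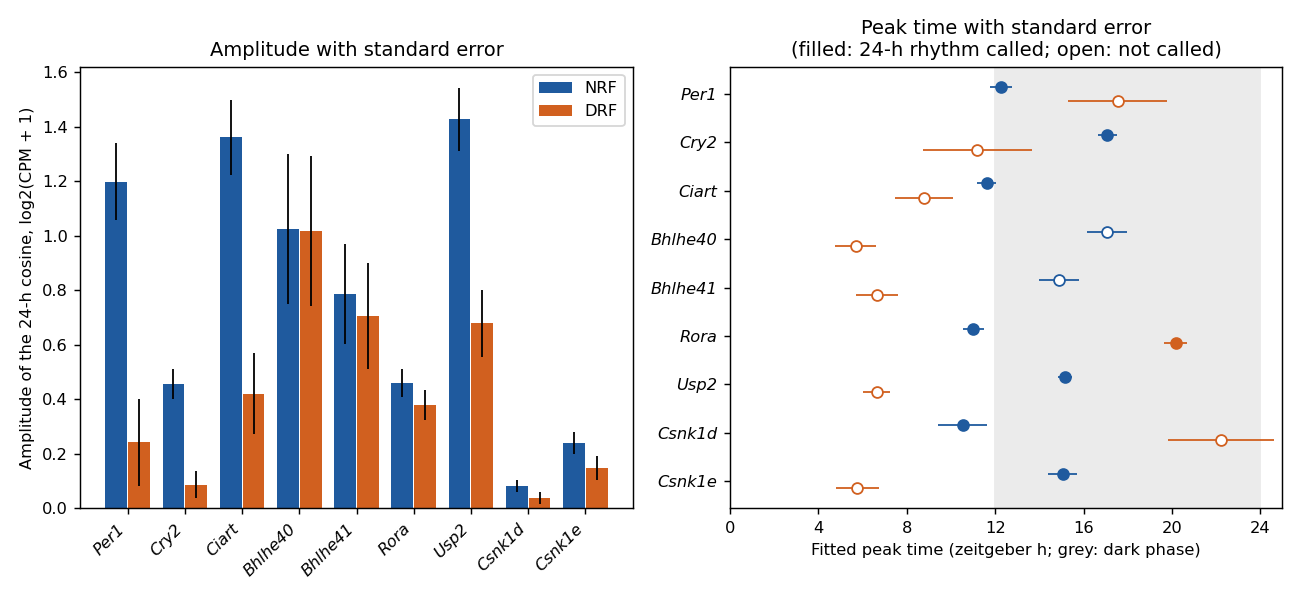
Left, amplitude of the fitted 24-h cosine on the log2(CPM + 1) scale under NRF (blue) and DRF (orange) with standard errors. Right, fitted peak times in zeitgeber h with standard errors, filled where the MetaCycle-type test called a 24-h rhythm. The DRF amplitudes of Per1, Cry2, Ciart and Usp2 are 18.8 to 47.6% of those under NRF, and Rora is the only gene with a filled point in both regimens.

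The DRF curve was moved by 12 h and compared with the NRF curve at equal time from the feeding window. This comparison was made in limma on the 24-h terms. A difference can lie in amplitude, in peak time or in both, and its cause was not tested. The curves differed for 5 of 9 genes, against 14.9% of all genes. These were Ciart (adjusted p = 1.53e-08), Usp2 (6.81e-07), Per1 (1.71e-05), Cry2 (4.52e-05) and Rora (0.00549). For Bhlhe40 (adjusted p = 0.937), Csnk1d (0.606), Csnk1e (0.0956) and Bhlhe41 (0.0854) no difference was called, which does not show that the curves are equal. Csnk1e passed without the pair of DRF libraries that stand apart (adjusted p = 0.0294), and Rora did not without replicate 3 or 4 (0.0616 and 0.0742). The group means of Bhlhe40 were close at some of the matched times and not at others. They were 155 ± 84.2 CPM at NRF ZT16 and 153 ± 17.3 CPM at DRF ZT4, and 26.6 ± 15.1 CPM at NRF ZT4 and 29.5 ± 5.67 CPM at DRF ZT16. At NRF ZT12 the mean was 65.3 ± 19.5 CPM, against 185 ± 113 CPM at DRF ZT0 and 49.4 ± 18.7 CPM at DRF ZT24. At NRF ZT20 it was 146 ± 57.1 CPM, against 93.7 ± 28.7 CPM at DRF ZT8, and at NRF ZT8 68.4 ± 29.4 CPM, against 41.7 ± 14.6 CPM at DRF ZT20. DRF ZT12, at 120.1 ± 55.3 CPM, stood against 65.1 ± 82.4 CPM at NRF ZT0 and 100.4 ± 54.1 CPM at NRF ZT24. The NRF ZT0 mean rests on 1 mouse, replicate 3 at 188 CPM, without which the mean of the other 3 was 24.2 CPM. For Ciart, the NRF maximum of 12.4 ± 2.12 CPM at ZT12 stood against 1.8 ± 1.27 CPM at DRF ZT0 and 0.764 ± 0.278 CPM at DRF ZT24. Without replicate 2 the DRF ZT0 mean was 1.17 CPM.

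**Figure D3:**
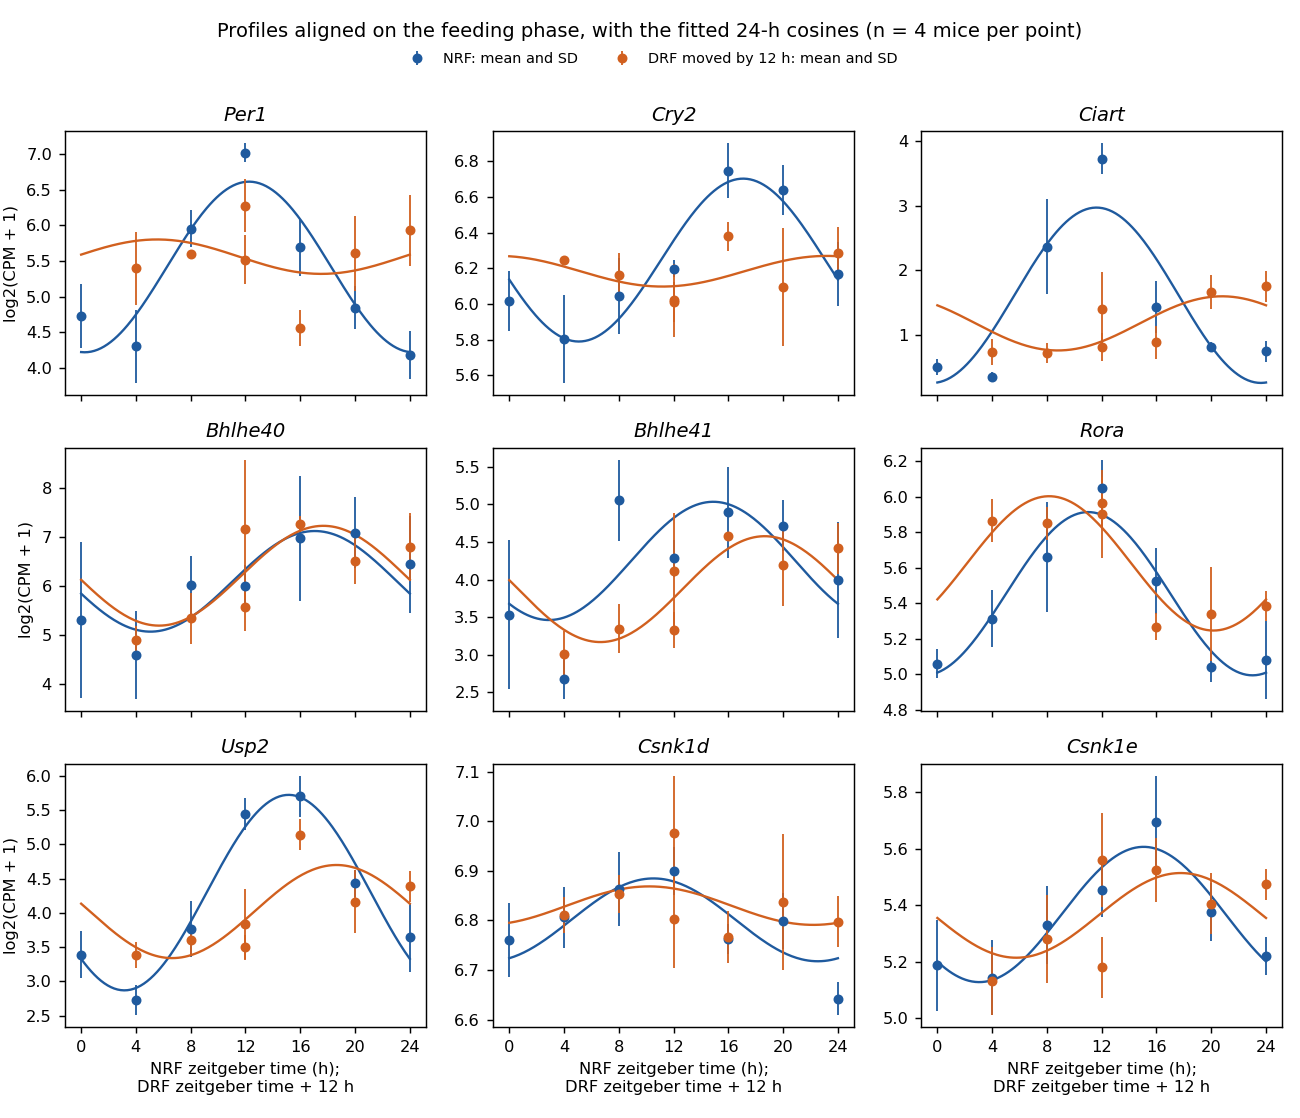
Group means with SD (4 mice each) and fitted 24-h cosines as log2(CPM + 1), with NRF (blue) at its zeitgeber time in h and DRF (orange) moved by 12 h, so that the phases with food coincide. The fitted Bhlhe40 cosines lie close to each other, with group means scattered around them, whereas the DRF curves of Per1, Cry2 and Ciart stay flatter than the NRF curves.

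Single time points were compared in limma over 14 group means. Of 63 pairs of gene and time point, 31 differed between DRF and NRF, against 13.9% of all such pairs, 16 higher and 15 lower under DRF. At ZT0, 6 of 9 genes were higher (Bhlhe40, Per1, Ciart, Rora, Csnk1e and Csnk1d), against 5.41% of all genes, and 0 lower, against 5.06%. At ZT4, 5 were higher (all genes 10.4%) and 0 lower (9.06%), with Bhlhe40, Usp2, Bhlhe41, Cry2 and Csnk1e in that order of size. At ZT8, 0 were higher (8.99%) and only Ciart was lower (7.47%), and at ZT12, Ciart, Per1, Usp2 and Rora were lower (4 genes, against 7.37%) and 0 higher (8.76%). At ZT16, Usp2, Bhlhe40, Bhlhe41, Ciart, Csnk1e and Cry2 were lower (6 genes, against 4.97%) and 0 higher (5.02%), and at ZT20, 4 were lower (6.4%) and 2, Per1 and Rora, higher (6.71%). At ZT24, Per1, Rora and Csnk1d were higher (3 genes, against 6.1%) and 0 lower (5.24%). The other 3 genes that were higher at ZT0 were not called at ZT24, the same clock time, with log2 differences of -0.87 (Bhlhe40, SE 0.59), -0.04 (Csnk1e, SE 0.09) and 0.07 (Ciart, SE 0.22). Without replicate 2 of every group the total went from 31 to 19 pairs. Of the 31 pairs, 16 passed whichever replicate number was left out of every group. The 15 that did not each time were Bhlhe40 at ZT0, ZT16 and ZT20, Bhlhe41 at ZT20, Ciart at ZT0, ZT8 and ZT16, Cry2 at ZT16 and ZT20, Csnk1d at ZT0 and ZT24, Csnk1e at ZT0, Per1 at ZT12 and ZT20 and Usp2 at ZT20. Bhlhe40 at ZT0 also did not pass without the pair of DRF libraries that stand apart (log2 difference 1.61).

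**Figure D4:**
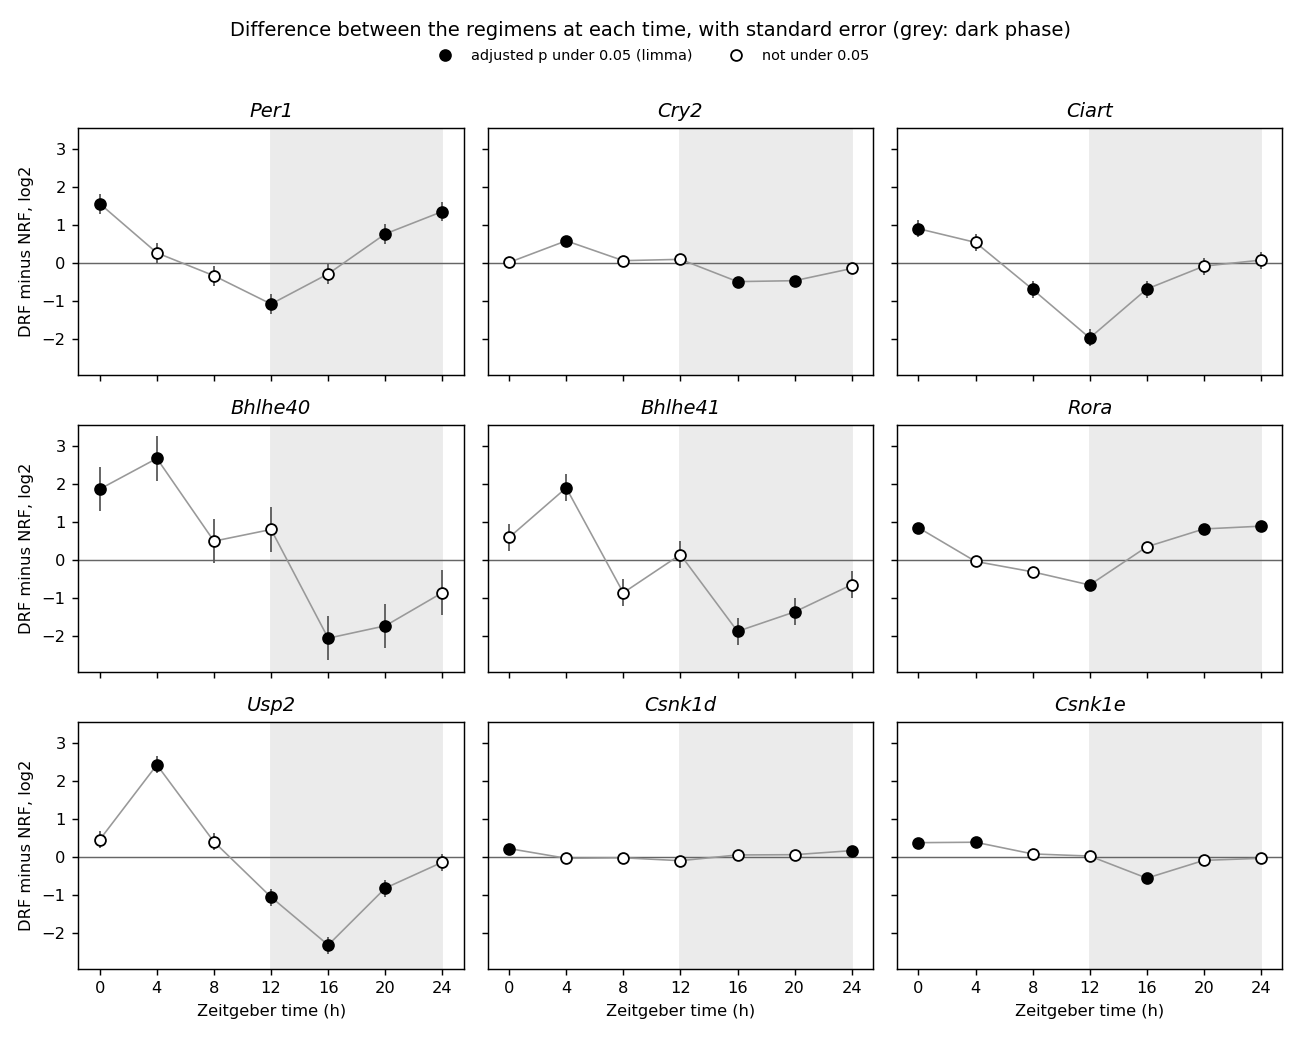
DRF minus NRF on the log2(CPM + 1) scale with standard errors against zeitgeber time in h, filled where the limma adjusted p is under 0.05, with the dark phase in grey. Usp2 goes from 2.42 at ZT4 to -2.32 at ZT16, while Csnk1d stays between -0.10 and 0.22.

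A 12-h component beside the 24-h cosine was called for 1 gene under NRF, Ciart (amplitude 0.73, limma adjusted p = 2.06e-05), against 0.027% of all genes, and for 1 gene under DRF, Per1 (amplitude 0.57, adjusted p = 0.0105), against 1.19%. The DRF profile of Per1 had a fall from 78.6 ± 21.5 CPM at ZT0 to 22.8 ± 4.35 CPM at ZT4 and a second rise to 62.7 ± 21.1 CPM at ZT12. Without replicate 2, 3 or 4 the call for Per1 did not pass (adjusted p = 0.114 to 0.195). Ciart under DRF was not called in the main setting (amplitude 0.36, limma adjusted p = 0.0619). It passed with a pseudocount of 0.1 CPM (0.0336), with genes filtered at a mean log2(CPM + 1) of 1 (0.0368) and without the ZT24 libraries (0.0313). ZT0 and ZT24 are the same clock time in different mice. Between them 0 of 9 genes differed under NRF, against 0.154% of all genes, and 0 of 9 under DRF, against 0.0501%, in limma. At an unadjusted p under 0.05 there were 2 genes under NRF, against 8.42% of all genes, and 6 under DRF, against 10.2%. Per1 under DRF, for example, had 33.4, 41.9, 59.7 and 48.6 CPM at ZT24, a level 0.76 lower on the log2 scale than at ZT0 (SE 0.26, adjusted p = 0.323).

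Of 35 other clock pathway genes, all 35 found, 25 were rhythmic under NRF, against 24.9% of all genes, and 10 under DRF, against 12.7%. A rhythm that differed was called for 30, against 36%, and a difference in feeding-aligned time for 20, against 14.9%. Amplitude was lower under DRF for 13, against 1.1%, and higher for 1, against 0.339%. Over all 35 genes, whether or not rhythmic under NRF, the median amplitude under DRF was 63.8% of NRF. Single genes ran from 6.01% (Nr1d1) to 350% (Cul1, with no rhythm called under NRF). This median cannot be set beside the 64.3% of all genes, which covers only genes rhythmic under NRF. In mean level, 1 of the members was higher under DRF and 1 lower. Of the 35 genes, 8 were higher, against 11.4% of all genes, and 2 lower, against 10.3%. The median difference of mean level was 0.06 over these genes, -0.0032 over the members and -0.00036 over all genes (log2). Per2 kept a called rhythm in both regimens (MetaCycle-type test, adjusted p = 2.12e-09 and 0.000368), whereas no rhythm was called for Per1 under DRF. The amplitude of Per2 was lower under DRF as well, at 27.6% of NRF (Wald test, adjusted p = 1.22e-07), beside 20.2% for Per1. Per3 had no call by the MetaCycle-type test under DRF either (adjusted p = 0.0864). The difference between Per1 and Per2 was not tested.

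Likeness of profile was measured as Pearson's r over the 14 group means, as a description of points that share libraries. Per1 was most like Per3 (0.95), Cry2 most like Ptprb (0.93), Ciart like Gramd1a (0.93) and Bhlhe40 like Kdm2a (0.94). Bhlhe41 was most like Dip2b (0.93), Rora like Kcnh4 (0.98), Usp2 like Slc25a33 (0.93), Csnk1d like K230010J24Rik (0.87) and Csnk1e like Znrf1 (0.94). Within the list the closest pairs were Usp2 with Csnk1e (0.84), Bhlhe40 with Csnk1e (0.83), Bhlhe40 with Bhlhe41 (0.83) and Per1 with Ciart (0.82). The member closest to Rora was Per1 (0.76).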

How the data were processed

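RNA of VAT was sequenced by the authors from poly-A libraries that do not mark strand. Per the labels, reads were aligned to mm10 with HISAT2 2.0.5 and counted with featureCounts 1.5.0-p3. The authors deposited 1 value per gene and mouse and named it TPM. By its values the deposited score is log2(CPM + 1) divided by exon length and rescaled per library, and the normalization steps are not given in the sources used here. CPM and reads were recovered from it with GENCODE M21 exon lengths, and all 504 values of the 9 genes came out within 0.02 of a whole read.

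A 24-h rhythm was tested per regimen on the deposited values with JTK_CYCLE and Lomb-Scargle p-values joined by Fisher's method (a MetaCycle-type test, written in Python 3.11.15 with scipy 1.17.1). The best JTK_CYCLE p-value was multiplied by its 6 lags. A multiplier of 3 was also tried, after counts of rhythmic genes had been seen, and is given as an alternative. Differences were fitted on log2(CPM + 1), pseudocount 1, in limma 3.58.1 (R 4.3.3), and amplitude and phase with a cosine per regimen (the CircaCompare model in linear form, Wald tests). Benjamini-Hochberg adjustment ran over all 25939 genes, phase over those rhythmic in both regimens, with a threshold of 0.05. The tests were run on simulated data first.

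Groups came from the labels. Mice were not treated as paired by replicate number. The r across regimens had a median of 0.022 for the same number (n = 28, -0.31 to 0.34) and -0.016 for other numbers (n = 84). These values cannot exclude a pairing. The members, the lists and the alternatives were chosen with earlier results of these data known. All 9 members are named, with for each the gene of highest correlation. The design assumed linear TPM, and recovered log2(CPM + 1) took its place.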

Additional observations from a re-analysis of the deposited data

Results flagged for a closer look

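In 7 of 126 groups of 4 mice, 1 mouse lay far from the other 3 (Dixon's test), and chance gives about 1 in 20 such groups. On the log2(CPM + 1) scale these were Ciart in DRF ZT4 replicate 1 (1.27, others 0.72 to 0.79), Bhlhe40 in NRF ZT16 replicate 3 (5.09, others 7.44 to 7.82), Bhlhe41 in NRF ZT24 replicate 1 (2.85, others 4.26 to 4.51), Csnk1d in DRF ZT20 replicate 1 (6.80, others 6.86 to 6.88) and Usp2 in 3 NRF groups. The Usp2 values were 4.38 in NRF ZT8 replicate 3 (others 3.52 to 3.65), 4.14 in NRF ZT20 replicate 4 (others 4.49 to 4.56) and 4.40 in NRF ZT24 replicate 2 (others 3.34 to 3.41).

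The 24-h rhythm differed between DRF and NRF by the limma test of the difference itself for Per1 (adjusted p = 7.48e-06), Cry2 (1.1e-05), Ciart (2.32e-05), Bhlhe40 (6.55e-05), Bhlhe41 (0.000226), Rora (2.48e-12), Usp2 (3.1e-13), Csnk1d (0.00839) and Csnk1e (6.54e-06).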

How the results depend on the processing

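The count of members rhythmic under DRF was 1. It became 2 with a filter at a mean log2(CPM + 1) of 1 and without the pair of DRF libraries that stand apart. Each added Bhlhe41 (MetaCycle-type test, adjusted p = 0.0459 and 0.0287). Without the ZT24 libraries the count was also 2, with Usp2 added (0.0357). It was 2 with a JTK_CYCLE multiplier of 3, which adds Bhlhe41 (adjusted p = 0.0399) and was tried after the counts were seen, 0 with JTK_CYCLE alone (5 at an unadjusted p under 0.05), 5 with the limma F test and 0 to 1 leaving out a replicate number. Over the whole table the multiplier of 3 called 7148 NRF and 3948 DRF genes, that of 6 called 6452 and 3299. Members with a changed mean level went from 2 to 1 with a pseudocount of 0.1 CPM, 1 without ZT24, 3 with the filter, where Usp2 was also lower (adjusted p = 0.0452), and 0 to 1 leaving out a replicate number. Members with a 12-h component under DRF went from 1 to 2 with that pseudocount, 2 with the filter and 2 without ZT24, each time with Ciart added. The count was 0 to 1 leaving out a replicate number. Members that differ between ZT0 and ZT24 under DRF were 0 to 1, lower amplitudes 0 to 3 and differing pairs of gene and time point 19 to 29 leaving out a replicate number. Where such a count was 0, 1 to 5 members (DRF rhythm), 3 (mean level), 2 (12-h) and 4 (amplitude) had an unadjusted p under 0.05. These unadjusted counts stand without the share of all genes at that threshold and are not read as a result. The causes were not tested. With the replicate block, 9 members still had a rhythm that differed and 31 pairs differed, and it changed none of the limma and cosine-fit counts for which it was run. The MetaCycle-type test was not run with the block. No direction turned where a call was made, and of 831 single values under an alternative 53 lost and 7 gained the call. Leaving out DRF libraries cannot change the MetaCycle-type test under NRF, whereas the limma tests share 1 fit over both regimens. Depth was lowest for Ciart, at 9 to 545 reads per library.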
